A study of Rattus norvegicus with 30 samples.

Results

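Hepatocyte identity transcription factors are the proteins that switch on, and keep on, the genes that make a liver cell a liver cell. The 9 genes described here are Hnf4a, Foxa1, Foxa2, Foxa3, Cebpa, Onecut1, Prox1, Nr5a2 and Nr1i3, of 18166 genes measured. They were taken by symbol: a probe set counted when the platform annotation gave it exactly 1 gene symbol and that symbol was on the list. All 9 were found, each by a single probe set, and no probe set shared with another gene held any of them. Their Entrez identifiers are 25735 (Hnf4a), 25098 (Foxa1), 25099 (Foxa2), 25100 (Foxa3), 24252 (Cebpa), 25231 (Onecut1), 305066 (Prox1), 60349 (Nr5a2) and 65035 (Nr1i3).

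RNA came from frozen liver pieces of 30 wildtype Wistar rats, with 1 Affymetrix Rat Gene 2.0 ST array per rat and 6 rats in each of 5 groups. The 3 resected groups had lost 30, 70 or 90% of the liver by partial hepatectomy (PH30, PH70 and PH90), another had a sham operation, and the last had no operation. Tissue of the operated rats was taken 24 hours after surgery, and the labels give neither age nor sex. The question of the study was whether expression in the liver left behind depends on how much was removed.

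These factors work as a network. HNF4A, a nuclear receptor, binds the promoters of very many liver genes and of the other factors, the FOXA proteins open chromatin so that others can bind, and C/EBP alpha drives metabolic genes and holds back cell division. Onecut1 (HNF6), Prox1 and Nr5a2 (LRH-1) act in liver development and in bile acid and lipid metabolism, and Nr1i3 (CAR) is a nuclear receptor that switches on drug-metabolising enzymes. Partial hepatectomy is the classic setting in which mature hepatocytes divide while they go on serving the body.

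Values are log2 differences from the median of the gene's probe set over the 30 arrays, because the deposited table was centred in that way. A value of 0 is therefore the middle of these arrays and not an absence, levels cannot be compared between genes, and whether a marker of the liver is present at all cannot be read from the table. A gene was called when limma's Benjamini-Hochberg adjusted p over all 18166 genes was below 0.05. A fold is given as the higher group over the lower. The arrays of 2 rats stood apart from their groups. PH30 rat 95 correlated at 0.498 with the PH70 arrays and at -0.113 with the other PH30 arrays, and PH70 rat 139 at 0.204 with the sham arrays and at -0.114 with the other PH70 arrays. The unoperated rats carry the numbers 145 to 152 and the operated rats 37 to 143, so the order of the rats and the lack of an operation cannot be told apart.

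After removal of 90% of the liver 6 of the 9 genes were lower than after a sham operation: Cebpa, Foxa1, Foxa2, Nr1i3, Nr5a2 and Hnf4a. None was called higher. The falls ran from 2.63-fold for Cebpa to 1.2-fold for Hnf4a, and the median difference of the 9 genes was -0.60 against 0.00 for all genes. Of all genes 34.6% were called in this comparison, 14.7% as lower. After removal of 70% only Cebpa and Nr5a2 were called, both lower, where 18.6% of all genes were called and 8.15% as lower. After removal of 30% none of the 9 was called by limma, 2 had an unadjusted p below 0.05 (Nr5a2 and Cebpa), and 5.53% of all genes were called, 3.34% as lower. The median of the 9 genes was -0.22 in PH30 and -0.27 in PH70 against sham. Without rats 95 and 139 none of the 9 was called in PH30, 3 in PH70, with Foxa3 added, and 6 in PH90. Of all 18166 genes 1984, 4301 and 6623 were called without those rats, in that order. The 3 comparisons share the sham rats.

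**Figure D1:**
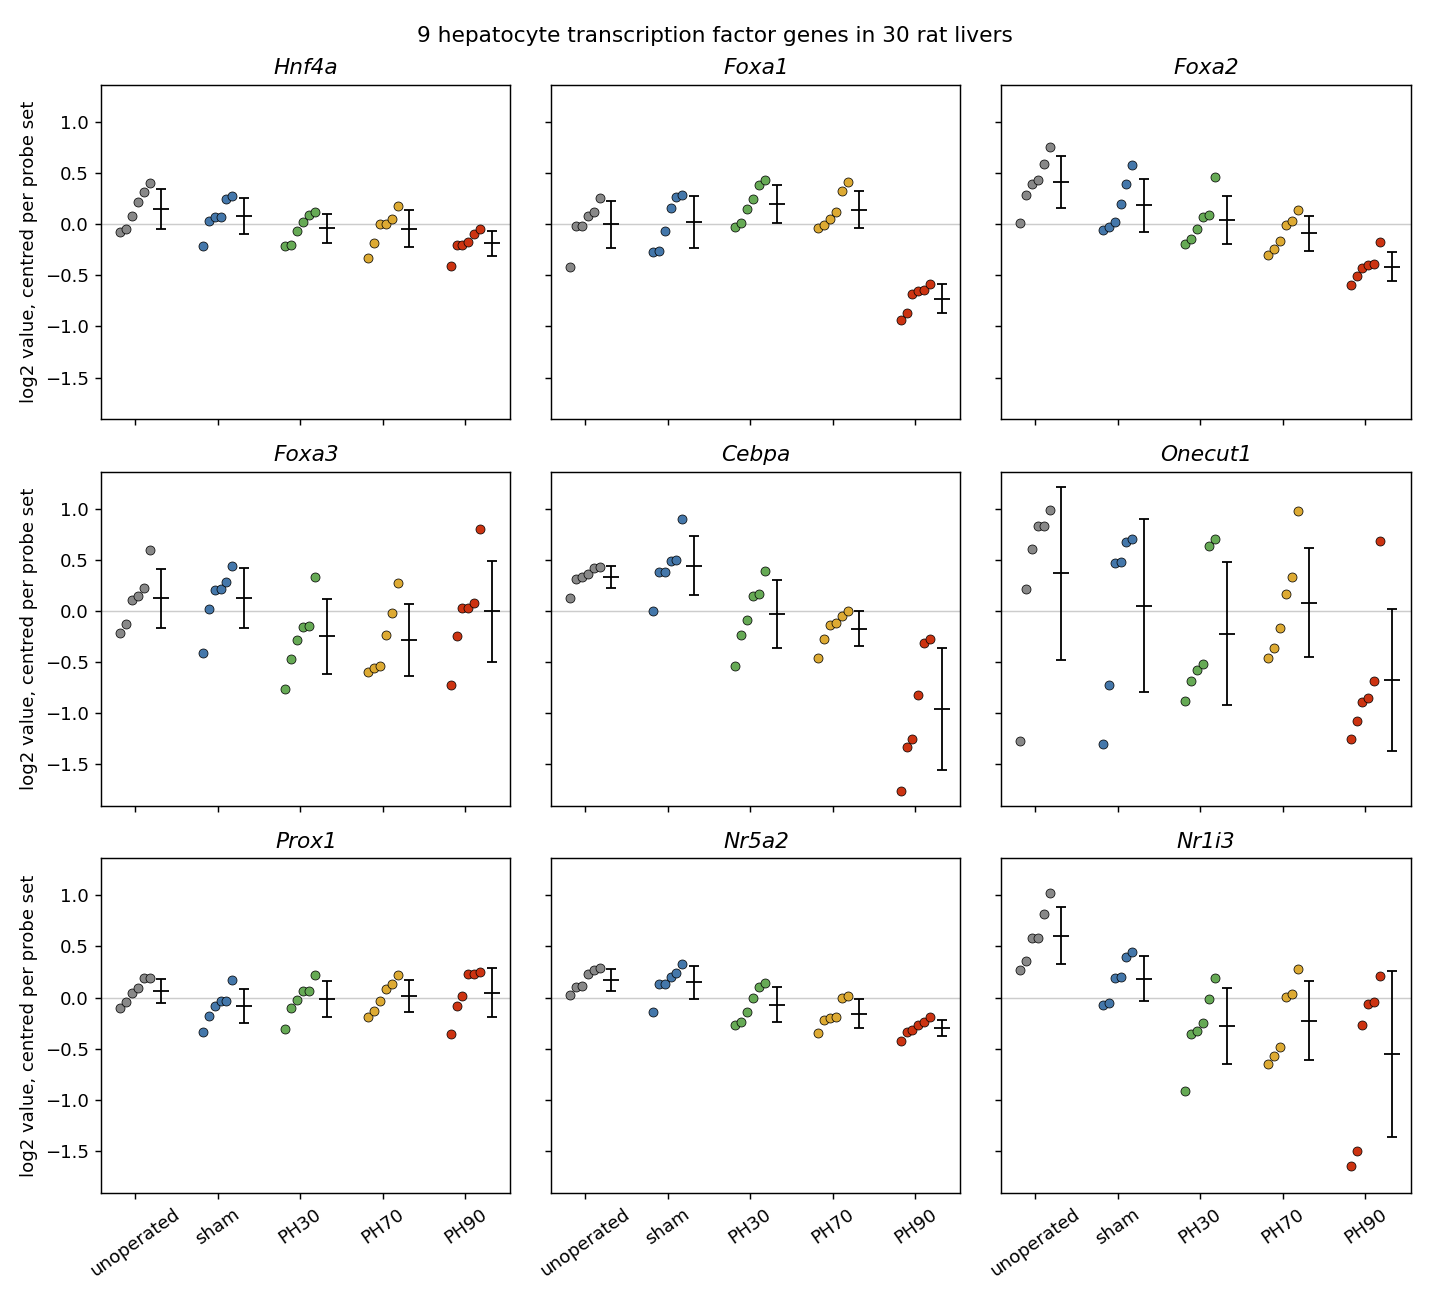
Log2 values of the 9 genes in each of the 30 livers, centred on each probe set's median (vertical axis), by group (horizontal axis). Points are rats in order of value, and the black bar beside them is the mean with 1 SD, n = 6. All 6 PH90 values of Foxa1 lie at -0.58 or below, under every other liver, while the PH90 values of Foxa3 run from -0.72 to 0.80.

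Cebpa, which encodes C/EBP alpha, had the largest fall of the 9. Its values ran from 0.13 over a median of 0.35 to 0.43 in unoperated rats and from 0.00 over 0.44 to 0.90 in sham rats. They ran from -0.54 over 0.03 to 0.39 in PH30, from -0.46 over -0.13 to 0.00 in PH70 and from -1.76 over -1.04 to -0.27 in PH90. No PH90 rat reached the lowest sham value, and the PH90 rats were the most spread (SD 0.60, against 0.11 to 0.33 in the other groups). The PH90 mean was 1.40 below sham on the log2 scale (difference -1.40, SE 0.19, 2.63-fold lower, adjusted p = 4.5e-07, limma). Against PH70 it was 1.72-fold lower (-0.78, SE 0.19, adjusted p = 0.002), and the ranges of those groups overlapped. Quantile normalization again was run on the centred values and draws the wider PH90 arrays to the spread of the others. That step can by itself shrink PH90 differences, here and below. After it the difference of PH90 from PH70 was -0.28 with an adjusted p of 0.35. In PH70 the gene was 1.53-fold lower than in sham (-0.61, SE 0.19, adjusted p = 0.019). That call was lost without PH70 rat 59 or without sham rat 141, with differences between -0.70 and -0.52 when single arrays were left out. PH30 differed from sham by -0.47 (95% interval -0.85 to -0.08, adjusted p = 0.15). That difference was -0.61 after quantile normalization, where it was called (adjusted p = 0.013). Rat 95 was the lowest PH30 rat, and without rats 95 and 139 the difference was -0.36 (adjusted p = 0.26), with -0.64 for PH70 against sham (adjusted p = 0.013) and -0.76 for PH90 against PH70 (adjusted p = 0.003).

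Foxa1 was lower in PH90 than in every other group. Its values ran from -0.42 over 0.03 to 0.26 in unoperated rats, from -0.27 over 0.05 to 0.29 in sham, from -0.03 over 0.20 to 0.43 in PH30 and from -0.04 over 0.09 to 0.41 in PH70. In PH90 they ran from -0.94 over -0.67 to -0.58. The first 4 groups overlapped and the PH90 livers lay below all 24 others. The PH90 mean was 1.68-fold lower than sham (-0.75, SE 0.11, adjusted p = 3.2e-06, limma), 1.83-fold lower than PH70 (-0.87, SE 0.11, adjusted p = 8.0e-07) and 1.9-fold lower than PH30 (-0.93, SE 0.11, adjusted p = 1.5e-07). Each of these calls held in all 12 fits that left out a single array. After quantile normalization the difference from sham was -0.47, still called (adjusted p = 0.0077). PH30 and PH70 differed from sham by 0.18 and 0.12, neither called (95% intervals -0.05 to 0.41 and -0.11 to 0.35).

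Foxa2 also fell in PH90. Its medians were 0.41 in unoperated, 0.11 in sham, 0.01 in PH30, -0.08 in PH70 and -0.41 in PH90 rats, with PH90 values between -0.59 and -0.17 and sham values between -0.06 and 0.58. PH90 and sham did not overlap, whereas PH90 and PH70 (-0.30 to 0.14) did. PH90 was 1.51-fold lower than sham (-0.60, SE 0.12, adjusted p = 1.7e-04, limma). Its difference from PH70 was -0.33 with an adjusted p of 0.046, a call that held in only 3 of the 12 fits without a single array (without PH70 rat 59, PH70 rat 97 or PH90 rat 43). It was also lost with array weights, without both arrays that stood apart (adjusted p = 0.053) and after quantile normalization (-0.19, adjusted p = 0.57). Against PH30 the fall was 1.37-fold (-0.46, adjusted p = 0.0035), and it was not called after quantile normalization (-0.37, adjusted p = 0.083). PH70 differed from sham by -0.27 (95% interval -0.52 to -0.03, adjusted p = 0.13), and by -0.26 without both arrays (adjusted p = 0.17).

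Foxa3 was not called in any of the 10 comparisons between groups. Its values ran from -0.41 over 0.21 to 0.44 in sham, from -0.76 over -0.22 to 0.33 in PH30, from -0.60 over -0.39 to 0.27 in PH70 and from -0.72 over 0.03 to 0.80 in PH90. All of these ranges overlapped, and the PH90 rats held the highest value of all 30. PH90 differed from sham by -0.13 (95% interval -0.54 to 0.28, adjusted p = 0.69) and PH70 by -0.41 (-0.81 to 0.00, adjusted p = 0.18). The highest PH30 and PH70 values were those of rats 95 and 139. Without those 2 rats PH70 differed from sham by -0.52 and was called (adjusted p = 0.047), and PH30 by -0.49 and was not (adjusted p = 0.10).

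The difference between family members was itself tested by taking 1 gene's value from another's in each rat and comparing groups with a two-sided exact permutation test, a test added after the values were seen. Foxa1 minus Foxa2 ran from -0.54 to -0.14 in PH90 and from 0.06 to 0.36 in PH70 rats, so Foxa1 fell 0.54 further than Foxa2 from PH70 to PH90 (exact p = 0.0022, adjusted over 6 tests 0.013). For Foxa1 against Foxa3 that gap was 1.15 in the same direction (shift difference -1.15, exact p = 0.0043, adjusted 0.013), and for Foxa2 against Foxa3 it was -0.60 (exact p = 0.056, adjusted 0.068). Against sham the gaps were -0.15 for Foxa1 over Foxa2 (exact p = 0.21, adjusted 0.21), -0.62 for Foxa1 over Foxa3 (exact p = 0.043, adjusted 0.068) and -0.47 for Foxa2 over Foxa3 (exact p = 0.056, adjusted 0.068). None of the gaps from sham passed after adjustment, and that of Foxa1 over Foxa2 was 0.07 after quantile normalization. In the step from PH70 to PH90 the gaps of Foxa1 over Foxa2 and over Foxa3 passed without rats 95 and 139 (-0.56 and -1.29, both with an adjusted exact p of 0.013) and after quantile normalization (-0.40 and -0.90, adjusted exact p = 0.013 and 0.019).

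Hnf4a had the smallest difference of the 6 genes called in PH90. Its values ran from -0.21 over 0.07 to 0.28 in sham rats, from -0.21 over -0.02 to 0.12 in PH30, from -0.33 over 0.00 to 0.18 in PH70 and from -0.41 over -0.18 to -0.05 in PH90. The lowest sham rat, 114, lay within the PH90 range, and the other 5 sham rats were at 0.03 or above. PH90 was 1.2-fold lower than sham (-0.27, SE 0.09, adjusted p = 0.024, limma), and this call was lost without PH90 rat 87, sham rat 45 or sham rat 141, and after quantile normalization (-0.25, adjusted p = 0.061). Against unoperated rats PH90 was 1.26-fold lower (-0.33, SE 0.09, adjusted p = 0.0049). The differences from PH70 (-0.14, 95% interval -0.33 to 0.05) and PH30 (-0.15, -0.34 to 0.04) were not called.

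Promoters of 4 of the genes are given so that the cores of the network's own factors can be seen in them: that of Cebpa, the gene with the largest fall, those of Foxa2, which was called in PH90, and Foxa3, which was not, and the pair listed for Hnf4a. They are RefSeq sequences of assembly GRCr8, each from 250 bases before to 50 after a start site. Capitals mark matches on either strand to core motifs of liver factors or to the TATA element. Of 33469 such promoters of the rat, 21.1% hold the FOXA core TGTTTNC, 7.45% the HNF1 core GTTAAT, 8.06% the HNF6 core ATCAAT and 14.2% TATAAA. The cores CAAAGTC (HNF4), CAAGGTC (LRH-1) and TTGCGCA (C/EBP) occur in 4.61%, 4.2% and 1.99% and were matched in none of the promoters of these genes.
Cebpa (chr1:96896334-96896633, plus strand): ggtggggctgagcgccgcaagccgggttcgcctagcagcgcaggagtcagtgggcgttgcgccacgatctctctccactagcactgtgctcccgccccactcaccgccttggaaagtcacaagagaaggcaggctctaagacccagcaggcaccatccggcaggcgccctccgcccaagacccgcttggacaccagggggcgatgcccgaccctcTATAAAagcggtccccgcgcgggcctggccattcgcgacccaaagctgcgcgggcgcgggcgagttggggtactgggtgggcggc
Foxa2 (chr3:155927459-155927758, minus strand): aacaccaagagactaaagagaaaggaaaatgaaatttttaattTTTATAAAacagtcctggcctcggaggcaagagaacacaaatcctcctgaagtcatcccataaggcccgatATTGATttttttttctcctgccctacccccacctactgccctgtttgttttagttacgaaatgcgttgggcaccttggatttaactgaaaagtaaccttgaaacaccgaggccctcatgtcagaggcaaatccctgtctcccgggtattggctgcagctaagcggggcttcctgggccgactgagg
Foxa3 (chr1:87799436-87799735, minus strand): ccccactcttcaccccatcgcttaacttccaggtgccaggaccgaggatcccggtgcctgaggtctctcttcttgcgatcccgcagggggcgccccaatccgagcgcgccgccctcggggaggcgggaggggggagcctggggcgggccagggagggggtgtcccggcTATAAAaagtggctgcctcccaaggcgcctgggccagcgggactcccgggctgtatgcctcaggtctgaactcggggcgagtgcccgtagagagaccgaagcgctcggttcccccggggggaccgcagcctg
Hnf4a, upstream start site (chr3:172605970-172606269, plus strand): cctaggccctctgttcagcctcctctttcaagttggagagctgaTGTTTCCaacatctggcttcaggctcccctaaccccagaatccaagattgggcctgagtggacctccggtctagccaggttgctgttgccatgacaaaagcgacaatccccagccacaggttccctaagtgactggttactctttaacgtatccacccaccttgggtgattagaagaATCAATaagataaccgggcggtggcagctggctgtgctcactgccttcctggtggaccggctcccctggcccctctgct
Hnf4a, downstream start site (chr3:172641586-172641885, plus strand): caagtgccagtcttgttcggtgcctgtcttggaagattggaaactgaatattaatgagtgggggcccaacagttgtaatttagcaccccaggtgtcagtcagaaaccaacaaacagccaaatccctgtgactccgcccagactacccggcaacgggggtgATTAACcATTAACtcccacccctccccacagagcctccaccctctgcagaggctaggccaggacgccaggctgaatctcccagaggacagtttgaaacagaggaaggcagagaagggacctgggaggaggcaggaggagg
Counted from the start site to the first base of a match, Cebpa has TATAAA at -35 and Foxa3 has it at -82. Foxa2 has an HNF6 core at -136 and a pair of overlapping TATA matches, on opposite strands, at -207 and -205. The upstream Hnf4a promoter has a FOXA core at -206 and an HNF6 core at -29, and the downstream one has HNF1 cores at -90 and -83. The array value of Hnf4a was not resolved to either start site. The table also lists promoters of Nr1i3, with a FOXA core at -7, and Nr5a2, with no match. A match is a run of letters and was not tested for binding.

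Nr5a2, the bile acid and cholesterol regulator LRH-1, fell in PH70 and PH90 with little spread between rats. Its values ran from 0.03 over 0.17 to 0.29 in unoperated, from -0.14 over 0.17 to 0.33 in sham, from -0.27 over -0.07 to 0.14 in PH30, from -0.35 over -0.20 to 0.02 in PH70 and from -0.42 over -0.29 to -0.19 in PH90 rats. Each larger resection had a lower mean, and PH90 did not overlap with sham. PH90 was 1.36-fold lower than sham (-0.45, SE 0.08, adjusted p = 3.1e-05, limma) and PH70 was 1.24-fold lower (-0.31, SE 0.08, adjusted p = 0.0052), and both calls held in all 12 fits without a single array. PH30 differed from sham by -0.22 (95% interval -0.38 to -0.06, adjusted p = 0.099), which was called without sham rat 114. Without rats 95 and 139 the PH70 difference from sham was -0.35 (adjusted p = 0.0014) and the PH30 difference -0.18 (adjusted p = 0.15). PH90 was 1.17-fold lower than PH30 (-0.23, adjusted p = 0.025), a call that was lost without PH30 rat 98, 130 or 140, without PH90 rat 39 and after quantile normalization (-0.17, adjusted p = 0.15). It differed from PH70 by -0.14 (95% interval -0.30 to 0.02).

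Nr1i3, the drug-sensing receptor CAR, split the PH90 rats. Rats 61 and 106 were at -1.50 and -1.65 and the other 4 between -0.27 and 0.21, 3 of them inside the sham range of -0.07 to 0.45. The PH90 mean was 1.67-fold lower than sham (-0.74, SE 0.25, adjusted p = 0.021, limma). The call was lost without rat 61 or without rat 106, with differences between -0.89 and -0.52 over all single arrays left out, in the fit of those 2 groups alone (adjusted p = 0.073) and after quantile normalization (-0.48, adjusted p = 0.12). Unoperated rats had the highest values (0.27 over 0.58 to 1.02), above every PH90 rat. Against them Nr1i3 was called lower in all 3 resection groups: 1.85-fold in PH30 (-0.89, adjusted p = 0.022), 1.78-fold in PH70 (-0.84, adjusted p = 0.017) and 2.23-fold in PH90 (-1.16, adjusted p = 4.3e-04). The PH30 call was lost without unoperated rat 147. Sham rats differed from unoperated rats by -0.42 (95% interval -0.93 to 0.10, adjusted p = 0.58). Neither PH30 nor PH70 was called against sham (-0.47 and -0.42, adjusted p = 0.30 and 0.29). Rat 95 was the lowest PH30 rat at -0.91 and rat 139 the lowest PH70 rat at -0.65. Without both, the differences from sham were -0.34 in PH30 and -0.33 in PH70 (adjusted p = 0.47 and 0.42), and those from unoperated rats -0.76 and -0.75, both still called (adjusted p = 0.041 and 0.03).

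Onecut1, which acts in the development of the bile ducts, and Prox1, which hepatoblasts need to migrate out of the liver bud, were not called in any comparison with sham. Onecut1 was the most scattered of the 9, with an SD over the 30 arrays of 0.77 against a median of 0.17 over all genes. In PH90 5 of the 6 rats lay between -1.25 and -0.69 and rat 106 at 0.68. Sham rats ran from -1.30 over 0.48 to 0.70. The difference of PH90 from sham was -0.73 (95% interval -1.54 to 0.08, adjusted p = 0.17), so a fall of more than 2-fold lies inside the interval. It was called without PH90 rat 106 or without sham rat 112. Against unoperated rats it was called (-1.04, 2.06-fold, adjusted p = 0.041), a call that held only without PH90 rat 106 or unoperated rat 147 of the 12 single arrays and was lost after quantile normalization (-0.87, adjusted p = 0.22). Prox1 varied as the median gene does (SD 0.17). Its group medians lay between -0.06 and 0.13, all 5 ranges overlapped, and PH90 differed from sham by 0.13 (95% interval -0.07 to 0.34, adjusted p = 0.36).

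**Figure D2:**
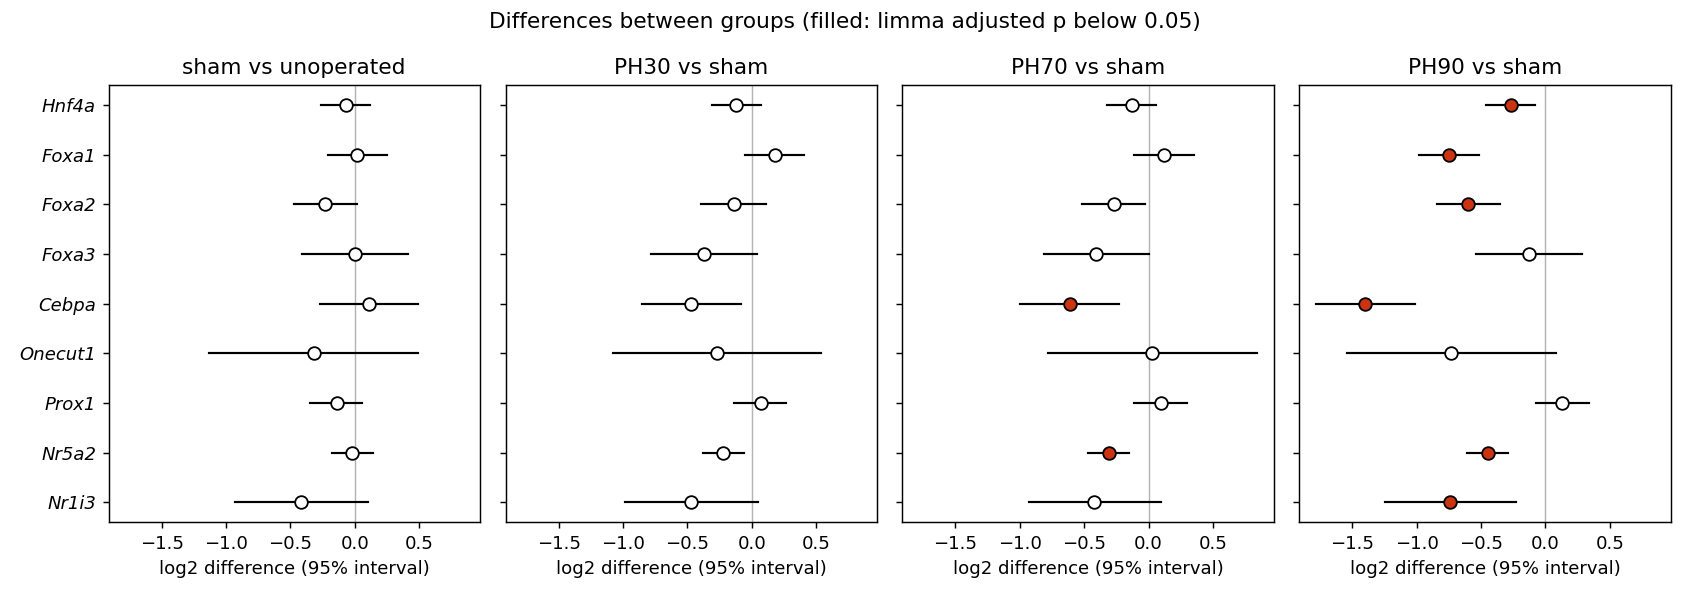
Differences between group means on the log2 scale (horizontal axis) for the 9 genes (vertical axis), first group minus second, in 4 comparisons. Lines are 95% intervals and filled points are genes that limma called lower. Filled points number 0, 0, 2 and 6 from left to right, and the interval of Onecut1 is the widest in each.

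Among the resection sizes, calls were found between 90% and the smaller resections. Limma's F test for any difference among PH30, PH70 and PH90 called Foxa1 (adjusted p = 9.1e-08), Cebpa (adjusted p = 3.6e-04) and Foxa2 (adjusted p = 0.0092). Of all genes 32.4% were called, so the share among the 9 was close to that of all genes. After quantile normalization only Foxa1 of the 9 was called, and without rats 95 and 139 Nr5a2 was called too (adjusted p = 0.026). The share of all genes that the F test called in these alternatives was not counted. Foxa1, Cebpa and Foxa2 were lower in PH90 than in PH70, where 24.5% of all genes were called and 10.4% as lower, and the same 3 genes and Nr5a2 were lower in PH90 than in PH30 (31.5% of all genes, 13.1% as lower). Between PH70 and PH30 limma called 0 of the 9, also in each alternative fit, with 0 at an unadjusted p below 0.05 and 2.27% of all genes called, 0.512% as lower. The differences of the 9 between these 2 groups lay between -0.15 for Cebpa and 0.30 for Onecut1. PH90 and sham did not overlap for 4 of the 9 genes (Cebpa, Foxa1, Foxa2 and Nr5a2), against 20.6% of all genes, 8.48% as lower. PH90 lay clear of PH70 for 1 of the 9, Foxa1 (10.5% of all genes, 4.15% as lower), clear of PH30 for Foxa1 alone (12.9%, 5.08%), and clear of unoperated rats for those 4 and Nr1i3 (20.3%, 8.77%).

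In the order of the 5 group means PH90 was lowest for 7 of the 9 genes. The share of all genes with PH90 lowest was not counted, so whether 7 of 9 is unusual cannot be read from this. For Hnf4a, Foxa2 and Nr5a2 the order was unoperated, sham, PH30, PH70 and PH90, from high to low. The only neighbours in that order that limma told apart were PH70 and PH90 for Foxa2 and Cebpa, and unoperated and PH90 for Foxa1. All other neighbours differed by less than could be called, also for Foxa3 (lowest in PH70) and Prox1 (lowest in sham).

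Surgery without resection moved none of the 9 past the threshold. Sham against unoperated rats gave 0 calls in limma, also in each alternative fit, and 0 at an unadjusted p below 0.05, where 0.738% of all genes were called, 0.429% as lower. The differences ran from -0.42 for Nr1i3 to 0.11 for Cebpa. With unoperated rats as the reference 2 of the 9 were lower in PH30 (Nr1i3 and Foxa2, 9.85% of all genes called, 6.37% as lower), 3 in PH70 (Nr1i3, Foxa2 and Nr5a2, 18.5% and 9.17%) and 7 in PH90 (all but Foxa3 and Prox1, 33.8% and 14.5%). The PH30 call of Foxa2 (-0.37, adjusted p = 0.048) held in 3 of 12 fits without a single array (PH30 rat 140, unoperated rat 145 or 147) and was lost after quantile normalization (adjusted p = 0.066). Nr5a2 just missed in PH30 (-0.24, adjusted p = 0.052) and was called without PH30 rat 130 or 140 or unoperated rat 152. Cebpa just missed in PH70 (-0.50, adjusted p = 0.059). It was called in 5 of 7 alternative fits and in 0 of 12 fits without a single array. Without rats 95 and 139 the PH70 count was 5, with Cebpa (-0.53, adjusted p = 0.043) and Foxa3 (-0.52, adjusted p = 0.049) added. In that fit 4145 of all genes were called, 2065 as lower. These comparisons share the unoperated rats.

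**Figure D3:**
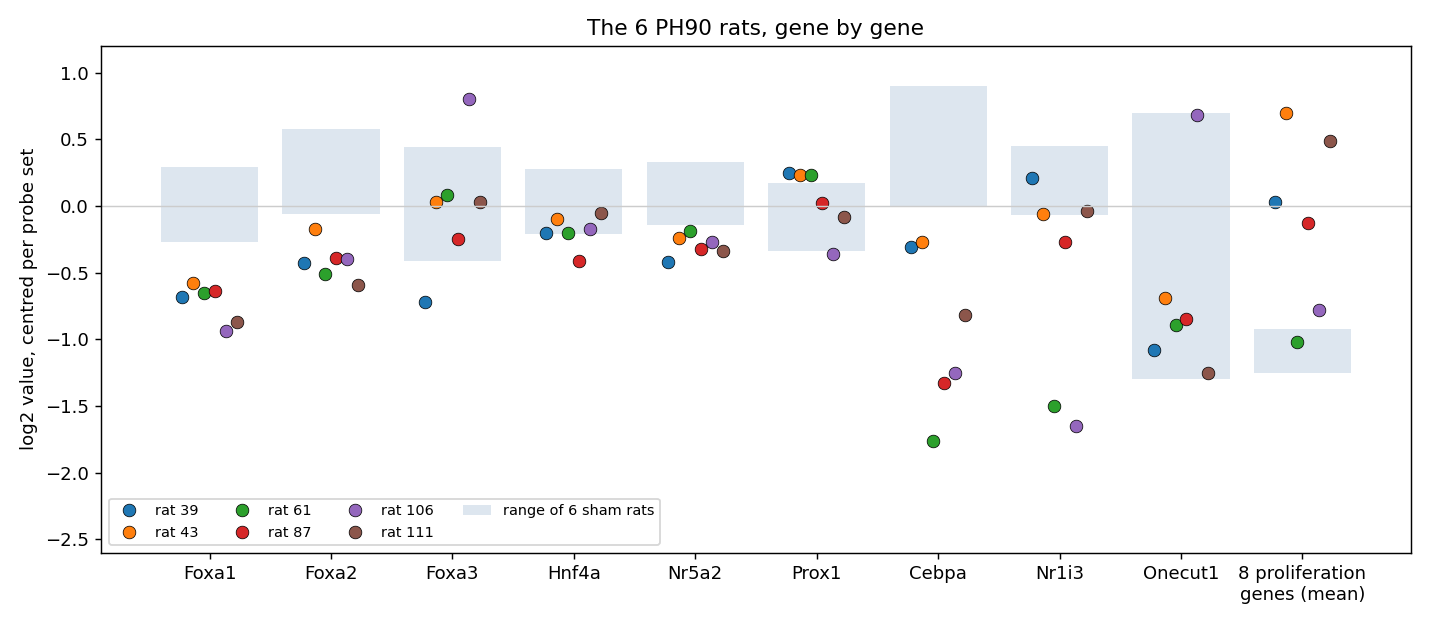
The 6 PH90 livers gene by gene: log2 values centred on each probe set's median (vertical axis) for the 9 genes, and the mean of 8 proliferation genes, on the horizontal axis. Colours are rats and the shaded boxes span the 6 sham rats. Rats 61 and 106 are lowest for Nr1i3 (-1.50 and -1.65) and lowest for the proliferation genes (-1.02 and -0.78).

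The PH90 livers were uniform in Foxa1, Foxa2, Hnf4a and Nr5a2 (SD 0.08 to 0.14) and varied in Cebpa, Nr1i3, Onecut1 and Foxa3 (SD 0.50 to 0.81), with Prox1 between (0.24). Rat 106 was lowest for Nr1i3, Foxa1 and Prox1 and highest for Onecut1 and Foxa3. Rats 39 and 43 kept the highest Cebpa values, -0.31 and -0.27, whereas rats 61, 87 and 106 were at -1.76, -1.33 and -1.25. Mean values of 8 proliferation genes (Mki67, Top2a and others) were -1.02 in rat 61 and -0.78 in rat 106 and between -0.13 and 0.70 in the other 4, where sham rats lay between -1.25 and -0.92. Mean values of 7 bile duct markers were 0.35 and 0.50 in rats 87 and 106 and 0.00 to 0.10 in the other 4. Single markers weigh on these means. Spp1 ran from -0.13 to 2.93 and Epcam from 0.13 to 0.87 over the PH90 rats, and the median difference of the 7 from sham was 0.06. The arrays of rats 61 and 106 were the widest over genes (SD 0.52 and 0.55). The part of proliferation, bile duct markers or array spread in the values of the 9 genes was not tested.

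In whole liver, fewer hepatocytes and less RNA per hepatocyte cannot be told apart. Marker counts in PH90 against sham stand beside 34.6% of all genes called, 14.7% as lower and 19.9% as higher. Of 7 measured hepatocyte markers 2 fell and 2 rose, and the mean of the list was -0.23 to -0.09 in PH90 and -0.02 to 0.24 in sham rats. The falls were those of Cyp2e1 (-2.52, adjusted p = 1.8e-14) and Ttr (-0.22, adjusted p = 4.2e-04), and Tat and Fgb rose by 0.66 and 0.22. The lower list mean rests on Cyp2e1, and the median difference of the 7 markers was 0.02. The list mean is therefore no measure of a general fall of hepatocyte markers. The markers of other cell types gave shares both above and below those of all genes. Of 8 macrophage markers 4 fell and 1 rose (list mean -0.73 to -0.03 in PH90, -0.05 to 0.24 in sham), of 6 neutrophil markers 3 rose (0.01 to 0.41 against -0.16 to 0.03), and of 7 lymphocyte markers 4 fell (-0.21 to -0.10 against -0.03 to 0.15). Of 7 bile duct markers 1 rose and 1 fell (0.00 to 0.50 against -0.12 to 0.08), of 7 stellate and fibroblast markers 2 rose and 2 fell (-0.25 to 0.07 against -0.17 to 0.35), and of the 5 endothelial and 5 lymphatic endothelial markers 1 and 2 fell (-0.32 to 0.06 against -0.26 to 0.21, and -0.30 to 0.12 against -0.13 to 0.20). Of the 8 proliferation genes 2 rose (-1.02 to 0.70 against -1.25 to -0.92). Against sham 6 of these 8 rose in PH30 and 8 in PH70, where 399 and 1906 of the 18166 genes were called higher. All 8 were lower in PH90 than in PH70, where 10.4% of all genes were. The part of all these markers in the falls of the 9 genes was not tested.

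Of 20 further transcription factors of the hepatocyte measured, 12 fell and 3 rose in PH90 against sham, where 14.7% of all genes were called lower and 19.9% higher. The list median was -0.39 against 0.00 for all genes. The 3 rises were smaller in size than the 4 falls named next, and those genes are not named here. The largest falls were those of Nr1h4, the bile acid receptor FXR (3.47-fold, -1.80, adjusted p = 3.6e-07), Ppara, the fatty acid sensor (2.66-fold, -1.41, adjusted p = 6.5e-05), Atf5 (2.47-fold, -1.30) and Onecut2, the close relative of Onecut1 (1.94-fold, -0.96). PH70 gave 4 falls and 1 rise (18.6% of all genes called, 8.15% as lower), among the falls Ppara (-0.97), Creb3l3 (-0.69) and Nr1i2, the drug sensor PXR (-0.49). PH30 gave 1 fall, that of Nr1i2 (-0.43, adjusted p = 0.027), where 5.53% of all genes were called and 3.34% as lower. Without rats 95 and 139 it gave 2 falls and 2 rises, where 1984 of the 18166 genes were called, 1098 as lower. After quantile normalization the PH90 counts were 8 falls and no rise, where 5158 genes were called, 2311 as lower. The lists of factors and targets were drawn up with earlier results of these data known and overlap one another.

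Counts of textbook targets are read against the shares of all genes called lower than sham, 3.34% in PH30, 8.15% in PH70 and 14.7% in PH90, and higher in PH90, 19.9%. These are shares of the main fit, and alternative fits called other numbers of the 18166 genes. For PH30 these were 1984 without rats 95 and 139 and 1286 in the fit of 2 groups, against 1005. For PH70 it was 4301 without those rats, against 3386, and for PH90 5158 after quantile normalization, against 6290. Of 13 HNF4A targets 3 fell in PH30 (6 in the fit of those 2 groups alone), 7 in PH70 and 8 in PH90, and none rose. Hnf4a itself differed from sham by -0.12 in PH30 (95% interval -0.31 to 0.07) and -0.13 in PH70 (-0.32 to 0.06), neither called, and by -0.27 in PH90. Whether targets moved with their factor was not tested, here or for the other factors. The largest PH90 falls were those of Slc10a1, the bile acid importer NTCP (9.95-fold, -3.32, adjusted p = 2.3e-15), Cyp27a1, a bile acid synthesis enzyme (4.51-fold), and Otc, a urea cycle enzyme of mitochondria (3.54-fold). Otc was already 1.5-fold lower in PH30 (-0.59, adjusted p = 0.0078) and 1.91-fold lower in PH70. Of 9 FOXA targets 1 rose (Tat, a tyrosine-degrading enzyme, 0.66) and 1 fell (Ttr, the thyroxine carrier, -0.22) in PH90, a smaller share than the 34.6% of all genes called. Of 9 C/EBP alpha targets 3 rose and 1 fell in PH90, where 19.9% of all genes were called higher and 14.7% lower. With so few targets these counts are not read as a result about them. The rises were those of Arg1, the arginase of the urea cycle (2.4-fold, 1.27, adjusted p = 1.1e-11), Tat, and Ass1 (1.45-fold, 0.53, adjusted p = 0.0015). Gys2, the glycogen synthase of the liver, was the 1 that fell (-0.61, adjusted p = 0.0028). After quantile normalization 1 of the 9 rose and 1 fell, and of the FOXA targets none rose and 1 fell. In PH70 2 FOXA targets and 1 C/EBP alpha target fell and none rose, where 18.6% of all genes were called, and without rats 95 and 139 4 FOXA targets fell and 1 rose and 2 C/EBP alpha targets fell. In PH30 limma called 0 targets of either factor (3 and 4 at an unadjusted p below 0.05), and without rats 95 and 139 2 FOXA targets fell, and 2 C/EBP alpha targets fell and 1 rose.

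Of 7 targets of LRH-1 4 fell in PH90 and none in PH30 or PH70, where limma gave 0 calls (0 and 1 at an unadjusted p below 0.05). They were Cyp7a1, the rate-limiting enzyme of bile acid synthesis (10.6-fold, -3.40, adjusted p = 1.3e-06), the sterol exporter Abcg5 (2.02-fold), the repressor Nr0b2 (1.87-fold) and the apolipoprotein Apom (1.76-fold). After quantile normalization 2 of the 7 fell in PH90 and 1 in PH70, and 1 in PH70 without rats 95 and 139. Of all genes 5158, 3930 and 4301 were called there, in that order. Of 13 CAR targets 4 fell in PH70, where 18.6% of all genes were called, and 7 fell and 4 rose in PH90, where 34.6% were. In PH30 limma called 0 of them, with 4 at an unadjusted p below 0.05, 3 lower after quantile normalization and 2 lower in the fit of those 2 groups alone. Of all genes 1219 and 801 were called lower in these 2 alternatives, against 606 in the main fit. Cyp2b2, the drug-induced cytochrome that serves as the textbook readout of CAR, was 13.6-fold lower in PH90 (-3.76, adjusted p = 3.8e-10). Its values lay between -3.37 and -2.86 in all 6 PH90 rats. Centred values do not show whether these lie near background, and a link to Nr1i3 in single rats was not tested. Gsta2, Cyp3a2 and Ugt2b1 were 11.7-fold, 7.03-fold and 6.35-fold lower. The 4 that rose, named after their values were seen, were Gadd45b, a stress response gene (6.02-fold, 2.59, adjusted p = 3.6e-10), Abcc3, an exporter of conjugated compounds (2.19-fold, 1.13, adjusted p = 1.1e-05), the carboxylesterase Ces2c (1.91-fold) and Por, which passes electrons to the cytochromes P450 (1.85-fold). In PH70 Cyp2b1 was 2.68-fold (-1.42, adjusted p = 0.0019) and Cyp2b2 2.45-fold lower (-1.29, adjusted p = 0.0068). The near-identical Cyp2b genes may share probes, so their values are not independent.

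**Figure D4:**
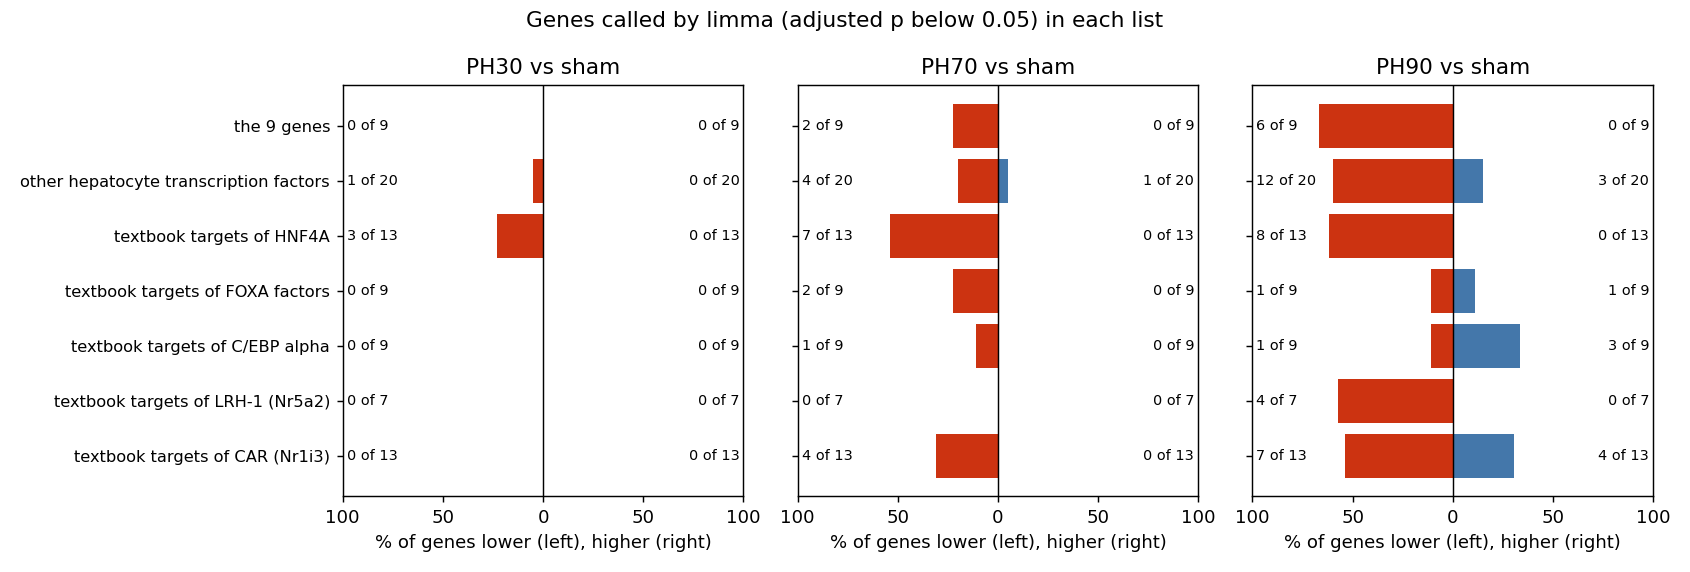
Share of genes (horizontal axis, percent) that limma called lower (left, red) or higher (right, blue) than sham in each list (vertical axis), for the 3 resection sizes, with counts printed in the bars' rows. In PH90 6 of the 9 genes were lower and none higher, and the C/EBP alpha targets had 3 higher and 1 lower. Of all genes 14.7% were called lower and 19.9% higher in PH90.

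Genes whose values ran most like those of the 9 over the 30 arrays are given as a description, since all values share the same rats and the group differences. Cebpa ran with Aldh5a1 (r = 0.93), Atosa (0.92) and Cyp3a73 (0.91), and Foxa1 with Sod1 (0.90), the copper-zinc superoxide dismutase, Onecut2 (0.88) and Paqr9 (0.87). Nr5a2 ran with rnf141 (0.91), Foxa2 with Sult1c2al1 (0.85), Foxa3 with Ccdc115 (0.84), Nr1i3 with Optn (0.84), Hnf4a with Stard10 (0.76), Onecut1 with Cish (0.74), a feedback inhibitor of cytokine signals, and with Socs2 (0.73), and Prox1 with Il4r (0.73). After each group's mean was taken away, the closest were Vgll4 for Foxa1 (0.85), Rrn3 for Foxa3 (0.86), Eif4ebp3 for Nr1i3 (0.89) and again Aldh5a1 for Cebpa (0.76). Among the 9 themselves Foxa1 and Foxa2 correlated at 0.65, and at 0.62 after the group means were taken away, whereas Cebpa and Foxa1 went from 0.62 to 0.16 and Foxa3 and Nr1i3 from -0.19 to -0.60.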

How the data were processed

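Liver RNA of 30 rats was hybridised to 1 array each, and groups were taken from the treatment in the labels. The authors deposited 1 table of 29489 probe sets on a log2 scale, made with RMA in Affymetrix Expression Console (version not given in the sources used here) per the submitters' processing notes; RMA corrects background and equalises the arrays. The table states neither scale nor centring. Log2 is taken from RMA, and each probe set has a median of 0 across arrays (largest deviation 5e-07), so levels are lost and only differences between arrays remain. The values do not show signal over background, and 6 arrays per group limit the precision.

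Of the probe sets 18511 had exactly 1 symbol in the platform annotation (575 had several, 10403 none). Probe sets of a gene were averaged to 18166 genes. Entrez identifiers of 18394 probe sets were found in RefSeq (GRCr8), which changed 0 symbols. limma 3.58.1 in R 4.3.3 fitted 1 mean per group to all 30 arrays (lmFit, eBayes, two-sided, 25 residual and 3.71 prior degrees of freedom), with Benjamini-Hochberg adjustment over all genes of a comparison. Every adjusted p is limma's unless an exact permutation test (scipy 1.17.1) is named, and a log2 difference is the first group minus the second. The fit was checked on simulated data. Each rat has its own number, so nothing pairs rats across groups. Nothing in the labels says that rats shared cages or litters, and p-values measure the spread between rats. The fit takes 1 spread per gene from all 5 groups together. For Cebpa and Nr1i3, with PH90 SDs of 0.60 and 0.81, that spread enters the SE of every comparison, also those without PH90.

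The 9 genes and all lists were chosen with earlier results of these data known. Named genes are the 9 in every comparison, up to 4 called genes of a list by size of change (or 2 where none was called), and the 3 genes most alike each of the 9, of which the text gives part. Alternatives were a fit of only the 2 groups compared, array weights, a robust prior, a filter on low variation and all probe sets tested. Others were quantile normalization again, of the centred values, leaving out rats 95 and 139, and leaving out each array. A filter on low values cannot be set on centred values. Genes on the lists without a probe set of a single symbol are not used here. The tests between pairs of FOXA genes and the alternatives for them and for the list counts were chosen after seeing the data.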

Additional observations from a re-analysis of the deposited data

Results flagged for a closer look

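In 45 sets of 6 values (9 genes in 5 groups) 2 single rats lay far from the rest of their group, and chance alone gives about 5% of sets. Both values belong to Onecut1. Unoperated rat 147 was at -1.27, whereas the other 5 unoperated rats lay between 0.21 and 0.99. PH90 rat 106 was at 0.68, whereas the other 5 PH90 rats lay between -1.25 and -0.69. No explanation of either was tested.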

How the results depend on the processing

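The falls of Cebpa, Foxa1, Foxa2 and Nr5a2 in PH90 against sham kept their direction and their call under every alternative run. Counts of the 9 genes called moved as follows. For PH90 against sham 6 were called, 4 after quantile normalization (without Hnf4a and Nr1i3), 5 in the fit of those groups alone (without Nr1i3) and 5 to 7 with single arrays left out. Quantile normalization again, which draws the wider PH90 arrays (SD over genes 0.36 to 0.55, against 0.19 to 0.30 in all others) to the common spread, gave 1 of the 9 for any difference among the resections, 1 for PH30 against sham, 2 for PH90 against PH30 and 1 for PH90 against PH70. PH30 against unoperated gave 1 with all probe sets tested and 1 in the fit of those groups alone. PH70 against unoperated gave 5 with array weights and 5 without rats 95 and 139. With single arrays left out the counts were 0 to 1 for PH30 against sham, 1 to 3 for PH30 against unoperated and 1 to 2 for PH70 against sham. The cause was not tested.

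Differences that changed sign were all uncalled. With array weights these were sham against unoperated for Foxa1 (-0.002) and Foxa3 (-0.005), PH70 against sham for Onecut1 (-0.047), PH70 against PH30 for Prox1 (-0.001) and PH90 against unoperated for Prox1 (0.035). After quantile normalization they were PH70 against PH30 for Foxa3 (0.002), PH70 against sham for Onecut1 (-0.057), and for Nr1i3 PH90 against PH30 (0.099) and against PH70 (0.083). Leaving out single arrays gave, for sham against unoperated, -0.063 to 0.079 (Foxa1), -0.066 to 0.108 (Foxa3) and -0.057 to 0.037 (Nr5a2). For PH70 against PH30 it gave -0.145 to 0.081 (Foxa3), -0.052 to 0.050 (Hnf4a), -0.076 to 0.144 (Nr1i3) and -0.028 to 0.078 (Prox1). Foxa3 gave -0.289 to 0.015 for PH90 against sham and -0.287 to 0.017 against unoperated, Onecut1 -0.238 to 0.162 for PH70 against sham, and Prox1 -0.007 to 0.116 for PH90 against PH70 and -0.050 to 0.071 against unoperated.

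Counts over all genes also moved. Sham against unoperated gave 134, and 721 in the fit of those groups alone, 539 with array weights, 509 after quantile normalization and 316 without rats 95 and 139. PH30 against sham gave 1005, and with array weights, without those rats and after quantile normalization 1938, 1984 and 2119. PH30 against unoperated gave 1789, and 2860 with array weights and 2781 after quantile normalization. PH70 against PH30 gave 413, and 2 in the fit of those groups alone, 2178 with array weights, 2420 without those rats, 769 after quantile normalization and 630 without genes of low variation. PH90 against PH70 gave 4454, and 2003 after quantile normalization. In number of features called, the other alternatives lay within 1.5 times for these comparisons, but not all as a share of those tested. The filter on low variation tested 9083 genes, and the fit of all probe sets tested 29489. With the filter 1302 of 9083 genes were called for PH30 against sham and 4358 of 9083 for PH90 against PH70. No paired analysis was possible because no rat number occurs in more than 1 group.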
